A study of Mus musculus with 2 samples.

Results

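Mir221 and Mir222 are a pair of microRNA genes on the mouse X chromosome, taken here as the rows whose Ensembl identifiers carry those names in GENCODE M21. They make up 2 of the 2202 microRNA genes counted in the study. Both were counted in each of 2 small RNA libraries labelled as gastrocnemius (calf) muscle of B6CASTF1/J pups, male and aged 4 days. B6CASTF1/J is a first-generation hybrid of C57BL/6 and CAST mice, and no treatment or altered allele is given. The labels place both libraries in a single group, as biological replicates 1 and 2 from separately numbered pups and biosamples that share a donor identifier. The comparison available is therefore between these 2 labelled replicates, and no second condition exists. The tissue label of replicate 2 is in doubt, because the skeletal muscle gene Mir206 had 101 reads there against 652657 in replicate 1, and the heart gene Mir208a had 29718 against 59. In every ratio of replicate 2 over replicate 1, a difference between pups and a difference in the tissue sampled cannot be told apart.

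A microRNA is cut from a hairpin precursor and guides a silencing complex to messenger RNAs that pair with its seed, the bases 2 to 8 of the mature strand. The mature products miR-221 and miR-222 share a seed and are known to repress the cell cycle inhibitor Cdkn1b (p27) and the receptor gene Kit. Both are described as high in dividing myoblasts and lower once muscle cells differentiate, and both are also known from endothelial and blood-forming cells. A library from whole tissue mixes cell types, so fewer cells of a type, less RNA per cell and another tissue cannot be told apart.

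The mature sequences are shown because the shared seed, in capitals, is what makes the pair a single targeting family. They were read 5′ to 3′ from RefSeq (GRCm38.p6, the assembly also called mm10), which matched both genes. All 4 lie on the minus strand. The first is miR-221-3p at chrX:19146307-19146329, the second miR-222-3p at chrX:19146901-19146923, the third miR-1928 at chr1:74206562-74206578 and the last the opposite arm, miR-221-5p, at chrX:19146344-19146369.

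miR-221-3p: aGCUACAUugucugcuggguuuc
miR-222-3p: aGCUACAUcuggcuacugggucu
miR-1928: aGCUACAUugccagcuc
miR-221-5p: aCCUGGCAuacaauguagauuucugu

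Of 1738 mature microRNAs in the RefSeq table, 3 carried the seed GCUACAU, namely both 3p strands of the pair and the 17 nt miR-1928. The 3p strands are 23 nt each and begin with the same 8 bases. Aligned from their first base without gaps, they match at 11 of 23 positions, so the likeness is concentrated at the 5′ end. The 5p strand of Mir221 has another seed, CCUGGCA. The Mir1928 gene had 0 sense reads in both libraries, which allows up to 0.673 CPM in replicate 1 and 0.976 CPM in replicate 2 (CPM is a gene's reads scaled to 1000000 sense reads assigned to microRNA genes). The counted reads of this seed family therefore came from Mir221 and Mir222.

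The hairpins are given with the RefSeq mature strands in capitals, because the deposited counts are per gene and sum whatever either arm gave. The Mir221 hairpin spans chrX:19146294-19146388 (95 nt, 47.4% G or C), and the Mir222 hairpin spans chrX:19146893-19146971 (79 nt, 54.4% G or C), both on the minus strand.

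Mir221 hairpin: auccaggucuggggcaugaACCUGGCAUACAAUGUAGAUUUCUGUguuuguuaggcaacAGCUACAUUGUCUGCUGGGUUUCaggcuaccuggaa
Mir222 hairpin: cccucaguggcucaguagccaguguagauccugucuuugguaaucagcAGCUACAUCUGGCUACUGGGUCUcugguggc

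The identifiers are ENSMUSG00000065422.1 for Mir221 and ENSMUSG00000065471.1 for Mir222. The hairpins are 504 nt apart and together span 678 nt, with Mir222 first in the direction of transcription. Neither overlaps another annotated gene in GENCODE M21, so both are intergenic in that annotation. The nearest annotated gene is Gm14636, a processed transcript on the same strand and upstream of Mir222, whose 3′ end lies 10009 nt from it. The closest protein-coding gene, Tex13c3, is 332448 nt away on that side.

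**Figure D1:**
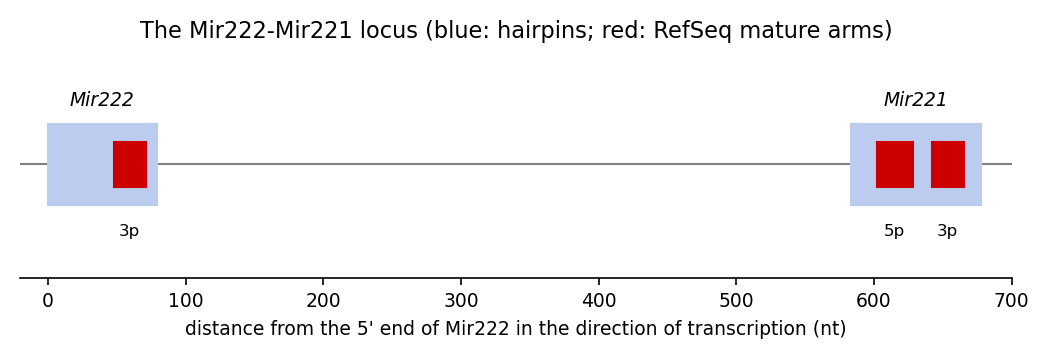
Map of the locus, with distance in nt from the 5′ end of Mir222 on the horizontal axis, hairpins as blue boxes and the RefSeq mature strands as red boxes. The hairpins lie 504 nt apart.

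The hairpins share no stretch longer than 9 nt with each other on either strand. Over the other 2201 counted microRNA genes, the longest stretch shared was 13 nt for Mir221 and 12 nt for Mir222, and 0 genes shared 18 nt or more with either. A read of 18 nt or more that matched one member exactly could thus match no other annotated microRNA gene exactly. The rest of the genome was not searched. All reads of the pair were on the sense strand, with 0 antisense reads in either library.

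Replicate 1 had 4458853 sense microRNA reads and replicate 2 had 3073086, of 8522350 and 7240126 reads in all. Mir206 was 14.6% of the microRNA reads of replicate 1 and 0.00329% of those of replicate 2, and Mir208a was 0.00132% and 0.967%, so the markers of replicate 2 go against its gastrocnemius label. A gene is compared here when it had at least 10 reads over both libraries, which left 410 genes, both members among them. Log2 ratios are replicate 2 over replicate 1 after scaling the libraries by TMM (trimmed mean of M values), with a prior count of 1. Replicate 2 was at least 2-fold higher for 85 of the 410 genes (20.7%) and at least 2-fold lower for 155 (37.8%). The median log2 ratio of all compared genes was −0.33. Under DESeq2 size factors 113 genes (27.6%) were higher and 135 (32.9%) lower, and on total reads 143 (34.9%) and 122 (29.8%), which moved the median by 0.26 and 0.59.

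Mir221, whose product represses Cdkn1b, had 349 reads in replicate 1 and 3894 in replicate 2. These reads were 78.3 CPM (95% exact interval 70.3 to 86.9) and 1267 CPM (1228 to 1308). Replicate 2 was high and replicate 1 low, and the intervals are far apart. As a share of microRNA reads, Mir221 held 0.00783% (0.00703 to 0.00869%) of replicate 1 and 0.127% (0.123 to 0.131%) of replicate 2. It ranked at 188 among the microRNA genes of replicate 1 and at 60 in replicate 2.

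Mir222, which carries the same seed, had 88 reads in replicate 1 and 455 in replicate 2. That is 19.7 CPM (15.8 to 24.3) against 148 CPM (135 to 162), again with replicate 2 high and no overlap of intervals. Its share of reads was 0.00197% in replicate 1 and 0.0148% in replicate 2. Mir222 ranked at 237 and at 139. Together the pair held 98.0 CPM (89.0 to 107.6) of replicate 1 and 1415 CPM (1373 to 1458) of replicate 2.

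**Figure D2:**
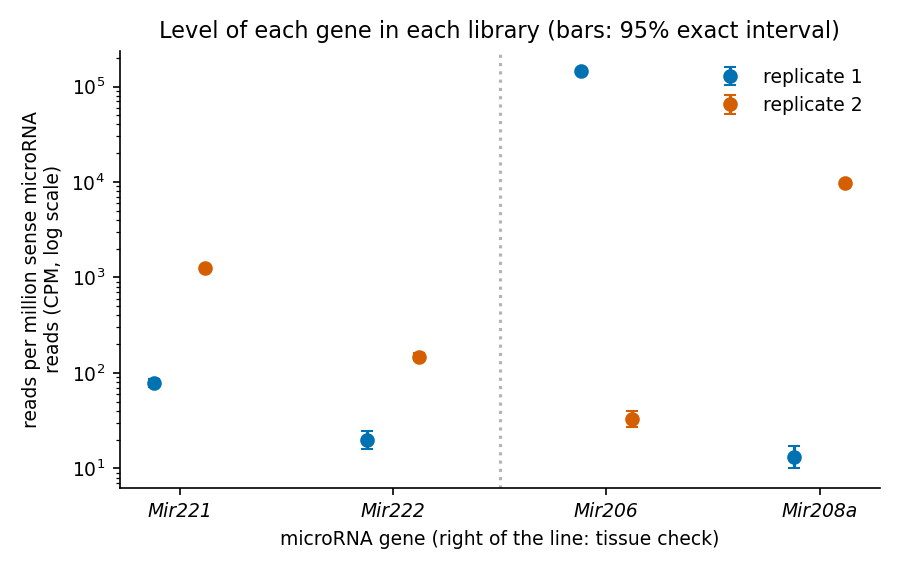
Level of Mir221 and Mir222 in each library, with the tissue markers Mir206 and Mir208a to the right of the dotted line; the vertical axis is CPM on a log scale and bars are 95% exact intervals. Mir221 stands at 78.3 and 1267 CPM, Mir222 at 19.7 and 148 CPM, and the markers cross in opposite directions.

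In replicate 1 Mir221 stood at 0.654 times the median level of the 341 genes with at least 10 reads there, and Mir222 at 0.165 times. In replicate 2 they stood at 18.8 and 2.20 times the median of 340 such genes. The pair thus sat below the middle of the detected microRNAs in one library and above it in the other. Over both libraries the mean was 673 ± 841 CPM for Mir221 and 83.9 ± 90.7 CPM for Mir222 (SD, n = 2), so each SD exceeds its mean. The intervals cover counting error only and leave out the spread between pups. PCR copies of a molecule are counted as separate reads, so the intervals can be too narrow even for counting error.

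The log2 ratio was 3.39 for Mir221 (95% counting interval 3.23 to 3.55), a 10.5-fold higher level in replicate 2. For Mir222 it was 2.27 (1.95 to 2.63), or 4.82-fold. Both members were past 2-fold, beside 20.7% of all compared genes in that direction, and both stayed past it under each scaling. With DESeq2 size factors the values were 3.66 and 2.54, and with total reads 4.01 and 2.89. Counted from the highest log2 ratio, Mir221 was at place 9 and Mir222 at place 27 of 410.

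The members were also set beside genes of like abundance, with a mean share within 2-fold of their own. Of 62 such genes for Mir221, 11 were at least 2-fold higher in replicate 2, 28 were at least 2-fold lower, and 1 had a higher log2 ratio than Mir221. Of 46 such genes for Mir222, 8 were higher, 18 were lower, and 1 exceeded Mir222. The median log2 ratios of these sets were −0.79 and −0.62. Both members thus stood above nearly all genes of like abundance.

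**Figure D3:**
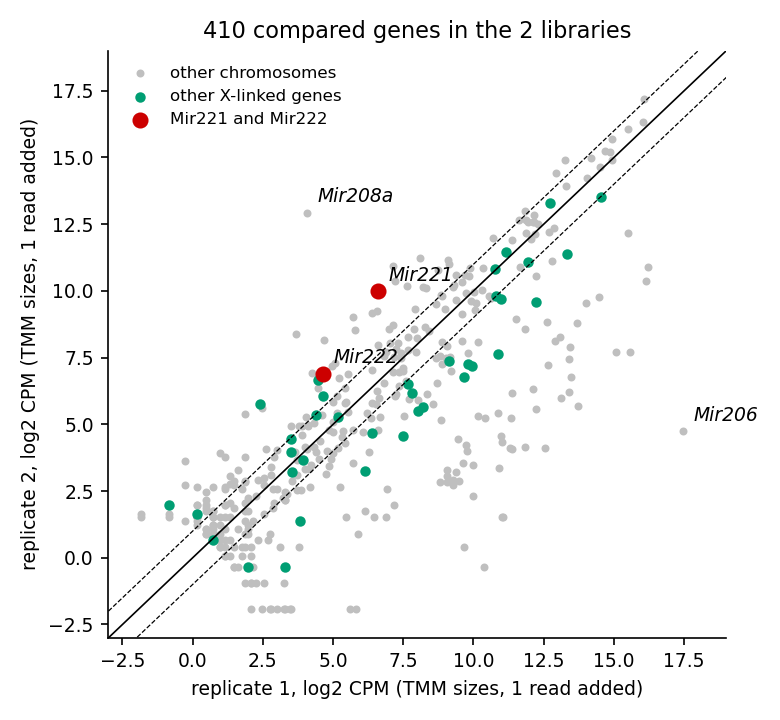
Log2 CPM (TMM sizes, 1 read added) of the 410 compared genes in replicate 1 (horizontal) and replicate 2 (vertical), with the line of equality solid and 2-fold lines dashed. Mir221 and Mir222 (red) lie above the upper dashed line, at log2 ratios of 3.39 and 2.27, while 155 genes lie below the lower one.

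Shares depend on the rest of the library, and Mir206 with the microRNA genes of the imprinted Dlk1-Dio3 domain (67 genes) took 47.6% of replicate 1 and 0.976% of replicate 2. With those genes left out of the total, Mir221 held 0.0149% of replicate 1 and 0.128% of replicate 2, and Mir222 held 0.00376% and 0.0150%. On those totals the log2 ratios were 3.10 and 1.98. Leaving these genes out thus gave lower ratios, and both members stayed past 2-fold.

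Mir221 exceeded Mir222 in both libraries, but by different factors. Mir221 had 3.97 reads per Mir222 read in replicate 1 (95% exact interval 3.13 to 5.07) and 8.56 in replicate 2 (7.76 to 9.45). Per nt of hairpin the ratios were 3.30 and 7.12. Mir221 made up 79.9% of the pair's reads in replicate 1 (75.8 to 83.5%) and 89.5% in replicate 2 (88.6 to 90.4%). This balance needs no scaling between libraries, because both genes are counted in the same library. Reads are not molecules, and microRNAs can be ligated and amplified unequally, so neither ratio gives the molar balance.

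The odds ratio of Mir221 against Mir222 reads, replicate 2 over replicate 1, was 2.16 (exact 95% interval 1.65 to 2.79). The two-sided Fisher's exact test gave p = 1.98e-08. This test compares the reads of 2 libraries, not conditions, and it does not include the spread between pups. It also takes PCR copies as separate reads. On a log2 scale the shift in balance was 1.11.

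Other neighbouring microRNA genes show how common such a shift was between these libraries. They were taken as neighbours on one strand, at most 1000 nt apart, among genes with at least 10 reads per library and 50 in all, a rule chosen after the pair's values were seen. Of 56 other pairs, 24 shifted by at least 2-fold between the libraries and 21 shifted by at least as much as Mir221 and Mir222. The median absolute shift was 0.86 on the log2 scale. X-linked pairs lay on either side of that value. Mirlet7f-2 and Mir98, of the let-7 family, shifted by 1.12, and Mir188 and Mir532 by 0.24. The change in balance of the pair was therefore of a common size among these pairs. It was beyond counting error when each read is taken as independent. Many of the larger shifts were in the Dlk1-Dio3 domain or in pairs that include a gene with several copies. Some pairs also share a gene, so the pairs are not independent. Whether such a shift is common among other pairs was not tested.

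**Figure D4:**
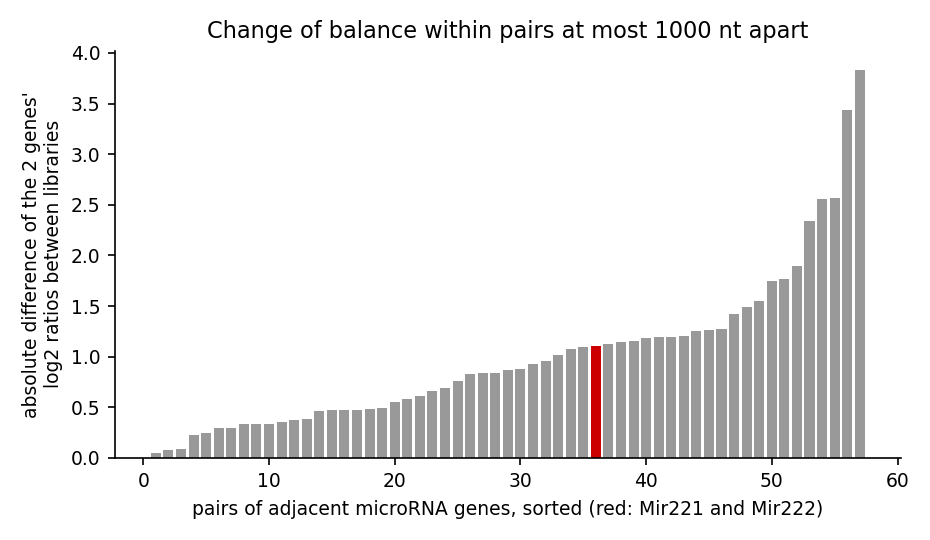
Absolute difference between the log2 ratios of the 2 genes of each of 57 adjacent pairs, sorted from the smallest; bars start at 0. The red bar, Mir221 and Mir222, is at 1.11, against a median of 0.86 for the other 56 pairs.

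Both genes sit on the X chromosome, of which a male has a single copy. Of 142 X-linked microRNA genes, 38 were compared. Of the 36 other than the pair, 5 were at least 2-fold higher in replicate 2, 20 were at least 2-fold lower, and the median log2 ratio was −1.09. With the pair included, the split of the 38 was 7 higher and 20 lower, and it became 9 and 17 under DESeq2 size factors and 11 and 16 on total reads. None of the 36 had a log2 ratio above that of Mir221, and 2 were above that of Mir222. X-linked genes as a whole held 5.15% of replicate 1 and 4.50% of replicate 2. Over all 410 compared genes, 20.7% were at least 2-fold higher and 37.8% at least 2-fold lower. The high ratios of the pair were thus not the direction of most compared X-linked microRNA genes. Many of the lower X-linked genes lie in clusters, that of Mir322 among them, so they are not independent.

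The compared X-linked genes on either side of the pair lie far away and had lower ratios. Mir1198, 11339072 nt from Mir221, had 54 and 47 reads and a log2 ratio of −0.28. Mir363, 33594721 nt from Mir222, had 40 and 83 reads and a log2 ratio of 0.95. It belongs to a cluster related to the growth-promoting Mir17-92 genes, in which Mir92-2 had 78 and 388 reads and a log2 ratio of 2.21 (1.87 to 2.59), close to Mir222. Its paralog on another chromosome, Mir92-1, had 3381 and 7172 reads and a lower log2 ratio of 0.995. Reads that map to both Mir92 genes are not in these counts. The nearest annotated microRNA genes, Gm22464 and Gm24824, had 0 reads in both libraries.

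**Figure D5:**
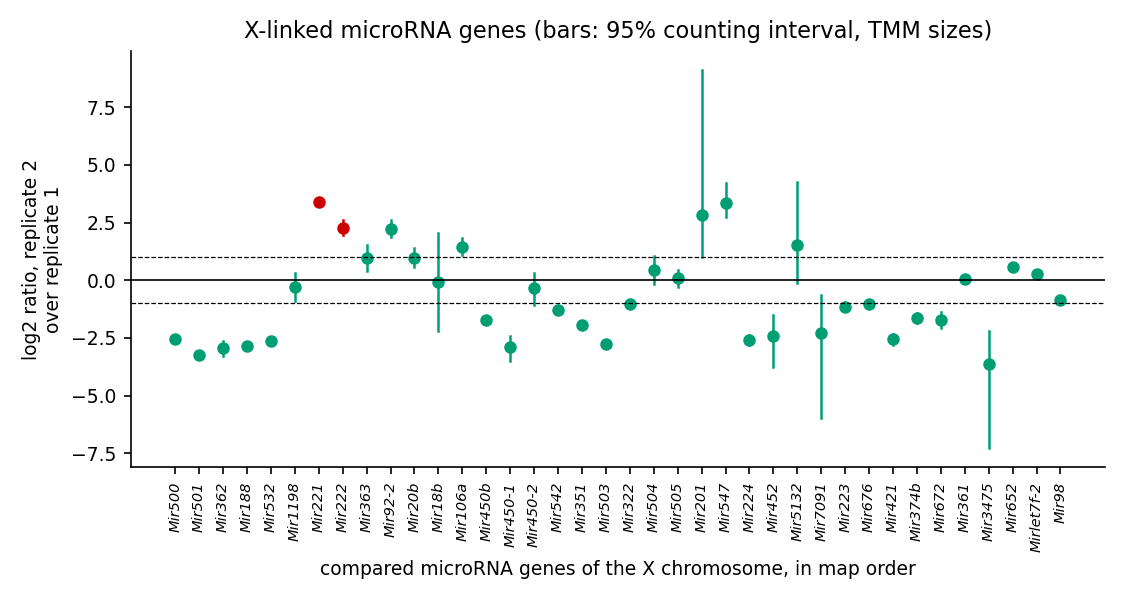
Log2 ratio of replicate 2 over replicate 1 for the 38 compared X-linked microRNA genes in map order, with 95% counting intervals and 2-fold lines dashed. Mir221 and Mir222 (red) stand at 3.39 and 2.27, and 20 of the other 36 genes lie at or below the lower dashed line.

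The genes closest to each member in log2 ratio were taken among 265 candidates with at least 100 reads in all. This likeness rests on 2 libraries, so it is a single number per gene. Closest to Mir221 were Mir547, Mir30c-2, Mir200c, Mir215 and Mir107, with log2 ratios from 3.16 to 3.54. Mir547 is also X-linked and had 18 and 207 reads, and Mir107, in a pantothenate kinase gene, had 973 and 9282. Closest to Mir222 were Mir193b, Mir144, Mir92-2, Mir499 and Mir15b, with log2 ratios from 2.04 to 2.25. Mir144 is an erythroid gene with 119 and 593 reads, and Mir499, in the myosin gene Myh7b, had 1953 and 8633.

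Genes of muscle growth and differentiation moved in both directions beside the pair. Of 13 compared genes of the Mir17-92 cluster and its paralogs, 4 were at least 2-fold higher in replicate 2 and 2 were at least 2-fold lower, with a median log2 ratio of 0.95 against −0.33 for all genes. Under DESeq2 size factors 7 rather than 4 were higher, and on total reads the split was 7 and 0. Mir93 had a log2 ratio of 1.26, Mir17 of −0.75 and Mir92-1 of 0.995. Of 7 genes of the cluster of Mir322, tied to cell cycle exit, 6 were lower and 0 higher, with Mir322 at −1.02, Mir351 at −1.94 and Mir542 at −1.29. The counts of lower genes were 5 by DESeq2 size factors and 4 by total reads.

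Of 8 compared genes listed under skeletal muscle, 3 were at least 2-fold higher in replicate 2 and 4 lower. Whether each listed gene is specific to skeletal muscle over heart or blood was not tested. The 4 lower genes were Mir206 at a log2 ratio of −12.73, Mir133b at −5.37, Mir133a-1 at −1.13 and Mir1a-1 at −1.08. Mir133b had 427 and 10 reads, and Mir1a-1 only 13 and 6. The 3 higher genes were Mir499 at 2.05, Mir208b, of the slow myosin gene Myh7, at 1.93, and Mir486 at 1.60. The remaining gene, Mir1a-2, went the other way from Mir1a-1, with 87 and 156 reads and a log2 ratio of 0.75. Reads that mapped to several places are not in these counts. The few reads of the Mir1a and Mir133a copies therefore may not give the level of their products. The list's median was −0.17, and 0.10 and 0.42 under the other scalings, where the split was 4 and 2. The library with high Mir221 and Mir222 was thus the one with low Mir206, high Mir208a and higher myosin-hosted Mir499 and Mir208b.

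Markers listed for endothelial, erythroid and white blood cells differed too. Mir126a, an endothelial gene, made up 2.54% and then 6.62% of reads, a log2 ratio of 0.75, and the other listed gene, Mir126b, had 1 read in each. With DESeq2 size factors Mir126a was past 2-fold at 1.03. Both compared erythroid genes of 3 listed were at least 2-fold higher, Mir451a at 1.39 and Mir144 at 2.22, with summed shares of 0.0220% and 0.0979%. Of 5 compared white blood cell genes of 7 listed, 3 were higher and 1 lower, with summed shares of 0.0793% and 0.429%. Mir155 stood at 3.15, Mir150 at 2.78 and Mir146 at 1.79, and Mir223 was the lower one at −1.16, which passed 2-fold under neither other scaling. The listed genes at 0 in both libraries were Mir451b and Mir142b.

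The smooth muscle genes Mir143 and Mir145a stood at 0.54 and 0.88, with list shares of 2.17% and 4.90% and Mir145b at 0 in both. With DESeq2 size factors 1 of these 2 was at least 2-fold higher, and on total reads both were. The 3 compared fibroblast genes of 4 were lower, Mir214 at −1.68, Mir199b at −2.31 and Mir199a-2 at −4.38, with list shares of 0.591% and 0.281%. Nearly all of that share was Mir214, with 25804 and 8555 reads. Mir199b had 275 and 58 reads, and Mir199a-2 had 254 and 12. Of 7 epithelial genes 3 were higher, Mir200c at 3.50 among them, with Mir203 at −0.996 and Mir205 at 0.10 and summed shares of 0.0223% and 0.0587%. The higher epithelial genes numbered 4 with DESeq2 size factors and 5 on total reads. Of 4 compared neural genes of 12, 3 were lower, Mir128-1 at −2.11, Mir338 at −2.15 and Mir128-2 at −3.66, and 1 was higher, with shares of 0.142% and 0.0426%. The Mir9 and Mir124a genes, each listed as several copies, were at 0. Reads that mapped to several places are not in these counts. A 0 therefore does not show absence, and counts of genes with several copies can be too low. The part of any of these cell types in the levels of Mir221 and Mir222 was not tested.

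Set against a marker in the same library, which needs no scaling, the pair's difference depended on the marker. Per 1000 reads of the endothelial Mir126a there were 3.08 Mir221 reads in replicate 1 and 19.2 in replicate 2, a 6.22-fold difference. For Mir222 these values were 0.776 and 2.24, a 2.88-fold difference. Against the smooth muscle genes Mir143 and Mir145a, Mir221 differed 7.20-fold and 5.70-fold. Against the erythroid genes Mir451a and Mir144 it differed 3.99-fold and 2.24-fold. Mir222 differed 3.34-fold and 2.64-fold against Mir143 and Mir145a. Against Mir451a it differed 1.85-fold, and against Mir144 1.04-fold, so it nearly kept its proportion to Mir144.

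The 5 compared white blood cell genes gave a wide range. Mir221 differed 1.18-fold against Mir155, 1.53-fold against Mir150, 3.03-fold against Mir146, 6.46-fold against Mir142 and 23.5-fold against Mir223. For Mir222 the replicate 2 over replicate 1 ratios were 0.548 against Mir155, 0.707 against Mir150, 1.41 against Mir146, 2.99 against Mir142 and 10.9 against Mir223. No single proportion to the white blood cell genes therefore held in both libraries.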

How the data were processed

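Each library's deposited table holds raw counts of reads for every microRNA gene, in columns for both strands, sense and antisense. Build mm10 and annotation GENCODE M21 are named in the deposited description files. The labels give inserts under 30 nt. The aligner and trimming remain not given in the sources used here. The 4 summary lines of each file were kept out of library sizes. They held 35.7% multimapping reads in replicate 1 and 45.1% in replicate 2. Reads that mapped to several places are thus missing from the gene counts and from the totals behind every share and CPM. The shares are of the counted microRNA reads, not of all microRNA.

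The sense column was used. All 2202 identifiers matched GENCODE M21, and 0 columns of other samples were used. Library sizes were scaled by TMM in edgeR 4.0.16 under R 4.3.3 on genes with at least 10 reads in all. Ratios have a prior count of 1 and exact binomial 95% intervals. Shares have exact Clopper-Pearson intervals, and the limit of a count of 0 was 3 reads. The labels form 1 group, so no model was fitted across genes, and "compared" means having those 10 reads. The ratio code was tested on simulated data. Python 3.11.15, scipy 1.17.1, numpy 2.4.6 and pandas 2.3.3 were used. Alternatives were DESeq2 1.42.0 size factors, total reads, the unstranded column, other priors and minimum counts, other totals and each library alone.

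The members and the 11 gene lists were chosen with earlier results of these data known. Named genes are the pair, genes with their seed, the X-linked neighbours, the 5 closest in log2 ratio to each member, up to 3 per list by mean share, and Mir206 and Mir208a. Mir92-2, Mir199a-2, Mir128-2, Mir223, Mirlet7f-2, Mir98, Mir188, Mir532 and listed genes at 0 or 1 read were named, and the ratios to marker genes chosen, after their values were seen. The same holds for Mir133b, Mir133a-1, Mir1a-1, Mir1a-2 and Mir486.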

Additional observations from a re-analysis of the deposited data

How the results depend on the processing

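The direction of both members held under every scaling, prior count and strand column run. The log2 ratio of Mir221 was 3.66 with DESeq2 size factors, 4.01 with total reads and 3.56 with the unstranded column, against 3.39. For Mir222 total reads gave 2.89, against 2.27. Genes at least 2-fold higher in replicate 2 numbered 143 with total reads, 142 with a minimum of 1 read and 45 with a minimum of 100 reads, against 85. Those at least 2-fold lower numbered 289 with a minimum of 1 read, against 155. Of 25 alternatives for the log2 ratios, the odds ratio and the counts of genes, 17 stayed within the counting interval or 1.5 times the count, 8 moved further and 0 reversed. The mean share ran from 0.00783% to 0.127% for Mir221 and from 0.00197% to 0.0148% for Mir222 when 1 library was left out, so each mean rests on which library is kept. With 2 libraries the SD exceeds the mean and gives no measure of how stable a mean share is. Adding the totals without Mir206 and the Dlk1-Dio3 genes was chosen after seeing the data and gave means of 0.0714% and 0.00936%. No paired analysis was possible because the labels give 1 group. Depth limits the lowest level, Mir222 in replicate 1 with 88 reads, to an interval of 15.8 to 24.3 CPM.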
